A study of Arabidopsis thaliana with 3 samples.

Results

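In Arabidopsis thaliana seedlings, 245 nuclear genes were at least 2-fold higher after salt in wild type and at least 2-fold lower in salt-treated skip than in salt-treated wild type. They were 1.53% of the 15974 nuclear identifiers that reached 5 FPKM in at least 1 of the 4 value columns, out of 33278 nuclear identifiers among 33557 in all. FPKM is a transcript level per length and library size. The genes were chosen on these values: log2 of (FPKM + 1) had to differ by at least 1 upward between untreated and salt-treated wild type, and by at least 1 downward between salt-treated wild type and skip. Salt-treated wild type stands in both ratios, so a high value in that 1 sample enters each of them in the direction asked for. The ratios of the members are therefore a description and carry no test.

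Seedlings 11 d old, whole plants, made up 3 groups. Untreated wild type was kept for 4 h in MS liquid medium, and salt-treated wild type for 4 h in MS liquid medium with 200 mM NaCl. The skip mutant received the same NaCl treatment for 4 h. The sources used here do not name the allele of skip, and no untreated skip sample was used, so the response of skip to salt was not measured. Each group has 1 value per gene, made from 2 replicates that had been merged before deposit. No difference below could be set against a spread between replicates, and a 2-fold difference is a rule of size only.

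SKIP is a component of the spliceosome that is also known to act with the Paf1 complex in transcription. When plants meet salt, the hormone abscisic acid (ABA) accumulates, SnRK2 kinases activate bZIP factors, and these bind ABA-responsive elements (ABRE) in promoters. CBF and DREB2 factors bind a second element, the DRE, and are known for switching on cold- and drought-regulated (COR) genes and dehydrins, hydrophilic proteins that protect membranes and enzymes when water is lost. SKIP RNA itself was at 39.2 FPKM in untreated wild type and 54.2 with salt; in the table with skip it was at 49.0 in salt-treated wild type and 41.6 in skip, so the level of this RNA does not mark the mutant by the 2-fold rule.

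COR genes and dehydrins are 4 of the 10 members with the highest RNA levels, and promoters of 5 members of their list are shown because such genes are known targets of both pathways. The 250 bases before the annotated start are given 5′ to 3′ on the strand of the gene, from the RefSeq TAIR10.1 genome. Capitals mark ABRE cores (ACGTG) and DRE cores (CCGAC), each on either strand.
COR15A, chr2:17712331-17712580, minus strand: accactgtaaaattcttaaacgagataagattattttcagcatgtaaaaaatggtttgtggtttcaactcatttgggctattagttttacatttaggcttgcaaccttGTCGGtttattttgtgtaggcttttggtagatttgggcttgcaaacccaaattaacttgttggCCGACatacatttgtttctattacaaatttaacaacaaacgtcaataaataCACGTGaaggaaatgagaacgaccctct
LTI30, chr3:18940393-18940642, plus strand: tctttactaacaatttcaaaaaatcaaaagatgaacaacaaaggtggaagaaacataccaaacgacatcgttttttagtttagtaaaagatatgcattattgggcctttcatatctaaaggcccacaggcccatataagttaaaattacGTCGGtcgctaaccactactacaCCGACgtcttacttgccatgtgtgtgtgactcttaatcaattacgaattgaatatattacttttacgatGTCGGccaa
KIN1, chr5:5209467-5209716, plus strand: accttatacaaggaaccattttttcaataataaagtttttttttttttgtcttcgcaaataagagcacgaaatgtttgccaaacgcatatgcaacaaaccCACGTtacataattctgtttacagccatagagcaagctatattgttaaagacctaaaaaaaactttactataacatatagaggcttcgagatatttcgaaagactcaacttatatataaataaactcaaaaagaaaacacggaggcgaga
COR413IM1, chr1:10289667-10289916, minus strand: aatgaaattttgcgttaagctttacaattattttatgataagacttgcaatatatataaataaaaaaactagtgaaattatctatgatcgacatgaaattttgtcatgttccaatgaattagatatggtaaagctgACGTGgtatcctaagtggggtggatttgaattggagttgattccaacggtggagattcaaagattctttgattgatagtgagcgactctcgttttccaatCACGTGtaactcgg
COR15B, chr2:17710434-17710683, minus strand: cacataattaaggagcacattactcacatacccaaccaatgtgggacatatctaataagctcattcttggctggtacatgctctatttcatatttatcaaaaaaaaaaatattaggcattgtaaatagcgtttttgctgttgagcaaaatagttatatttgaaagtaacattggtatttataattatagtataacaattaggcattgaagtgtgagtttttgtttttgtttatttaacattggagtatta
COR15A held 2 DRE cores, at 142 and 79 bases before the start, and a CACGTG at 28 bases, which reads as an ABRE core on both strands and counts as 2. LTI30 held 3 DRE cores and no ABRE core. COR413IM1 held 3 ABRE cores, 2 of them in 1 CACGTG, and KIN1 held 1. COR15B held neither core in this window, which says only that these letters are not there.

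Salt-raised genes made up 11.0% of the nuclear genes at the FPKM minimum, and 6.05% were at least 2-fold lower with salt. Genes at least 2-fold lower in skip made up 4.76%, and 2.03% were higher. Of the 1764 salt-raised genes, 13.9% were lower in skip, 4.99% were at least 2-fold higher in skip, and the remaining 1431 lay within 2-fold. Among genes that were not salt-raised, 3.62% were lower in skip. Turned round, 32.2% of the 760 genes lower in skip were salt-raised. The rule used both contrasts and salt-treated wild type is common to them, so nothing is read from these shares.

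The median member was at 3.86 FPKM in untreated wild type and at 23.7 FPKM with salt. In the second table, which the authors scaled separately, the same salt-treated wild type had a median of 21.4 FPKM and skip had 6.46. The 2 tables differ by a factor of 1.105 in that sample, the median over genes, so every ratio was formed within a table. The median log2 ratio was 2.17 for salt and -1.31 for skip, beside 0.02 and -0.09 over all genes at the minimum. The difference in skip was mostly near the threshold: 163 members had a log2 ratio above -1.5 and 33 were at -2 or below. The salt ratio was wider, with 134 members at 2 or above and 21 at 4 or above. At their salt-treated level, 43 members were at 100 FPKM or more and 51 were under 10 FPKM.

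Adding both log2 ratios of a gene sets salt-treated skip against untreated wild type. By that sum, 97 members were still at least 2-fold above untreated wild type in skip, 143 lay within 2-fold of it and 5 were at least 2-fold below it. The median sum was 0.67, against 1.58 for the salt-raised genes within 2-fold in skip. The sum contains the skip ratio that the rule used, so this difference follows from the rule and nothing is read from it. Most members in skip stood at or above the untreated wild type level, and 54 had a sum below 0.

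**Figure D1:**
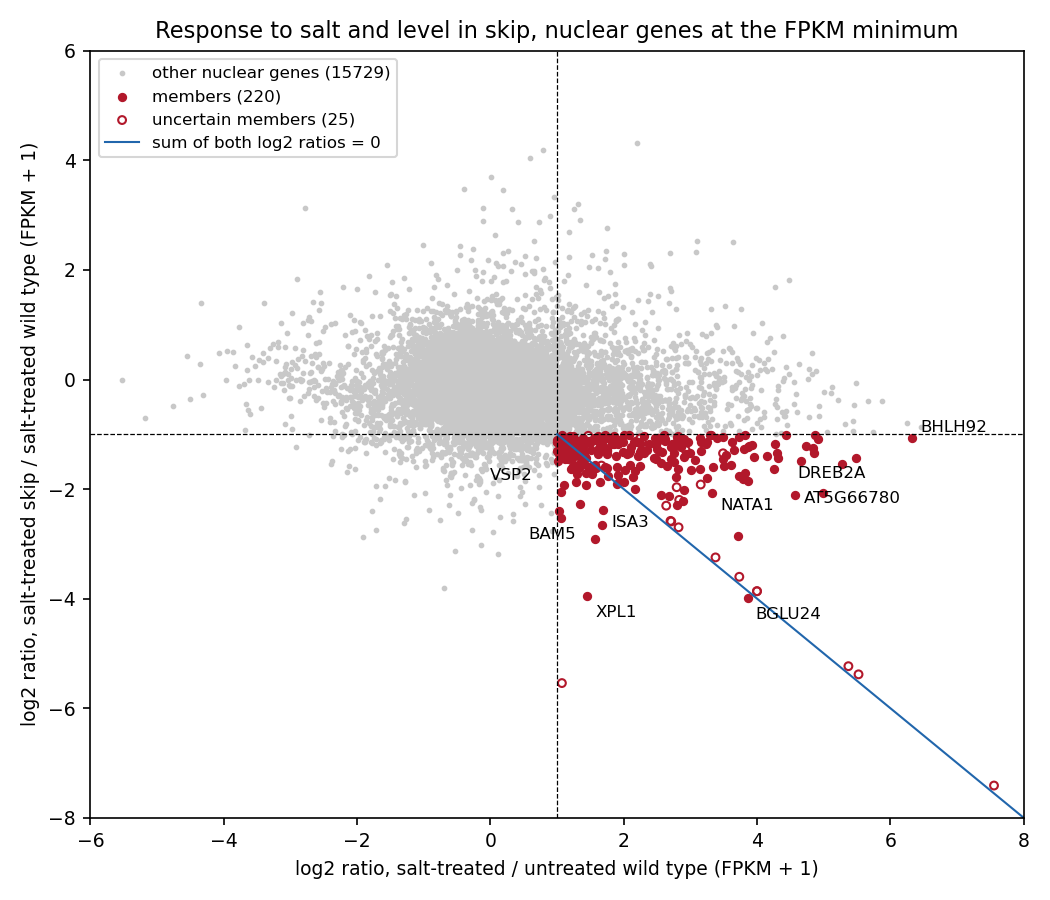
Each point is a nuclear gene at the FPKM minimum, placed by its log2 ratio of salt-treated to untreated wild type (x axis) and of salt-treated skip to salt-treated wild type (y axis), both from FPKM + 1. The 220 members drawn as filled points crowd just below the -1 line, the open points are the 25 uncertain members, and the blue line is where skip with salt equals untreated wild type. 4 genes, 1 of them a member, lie outside the axes.

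Of the 245 members, 25 are uncertain and are not described further as responses. There were 12 listed at 0 in a column, which can be a failed estimate, and 11 of these were listed at 0 in both untreated wild type and skip. The others are not protein-coding, have transcripts shorter than 300 nt, or are absent from the RefSeq annotation, as are AT3G02468, AT3G30769 and AT4G25386. The uncertain members include the annotated 18S ribosomal RNA locus AT3G41768, listed at 5092 FPKM in salt-treated wild type and at 0 in the other 2 groups, and the microRNA precursors MIR397a, MIR398b, MIR172e and MIR824. MIR398b overlaps the protein-coding locus AT5G14550 on the opposite strand. AT5G14560, AT3G13240, SNOR37-2, AT4G11870 and AT3G06895 are other loci listed at 0 in untreated wild type and in skip, and AT3G02468 had the lowest sum of both log2 ratios (-4.47). Without the uncertain members, 220 remain, with median log2 ratios of 2.08 for salt and -1.30 for skip.

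In the list of DREB-type factors, which bind the DRE, 13 of 16 genes were at the minimum, 11 were salt-raised and 5 of those were lower in skip, beside 13.9% of all salt-raised genes. The list's median skip log2 ratio was -0.85, beside -0.09 over all genes tested. It was chosen, like the other lists, with earlier results of these data known, so its share is a description. DREB2A, the drought- and heat-responsive member of the family, was at 5.57 FPKM in untreated and 188 in salt-treated wild type, then at 170.5 in salt-treated wild type of the second table and 66.8 in skip. Its log2 ratios were 4.85 for salt and -1.34 for skip, so that skip kept a level far above untreated wild type.

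DDF1, a CBF relative known for linking salt stress to lower gibberellin, was at 0.02 FPKM untreated and 38.7 with salt, and at 34.99 against 11.3 in skip. CBF3 (DREB1A), a cold-response activator, was at 2.87 and 33.2, then at 30.0 against 9.02 in skip. CBF4, the drought-responsive CBF, was at 0.09 and 14.4, then at 13.0 against 5.96. These 3 genes share a low untreated level and an intermediate level in skip. RAP2.9 differed from them: it was at 7.12 and 26.5, then at 24.0 against 6.32, which is a sum of both log2 ratios of -0.01. The other 6 salt-raised genes of the list were within 2-fold in skip. Among them RAP2.1 had a skip log2 ratio of -0.89, RAP2.10 of -0.85, CBF1 of -0.76 and CBF2 of -0.59. DREB2B was at 0.26 and DREB2C at 0.29.

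The bHLH, HD-ZIP class I, bZIP and MYB lists held 1 member each, of 4, 5, 7 and 14 salt-raised genes. Over all salt-raised genes the share was 13.9%, so nothing is read from these counts. BHLH92, a bHLH factor known as an osmotic stress gene, had the highest salt log2 ratio of the members that are not uncertain, 6.33. It was at 0.34 FPKM untreated and 107 with salt, and at 96.5 against 45.5 in skip, close to the threshold. HB40, a class I HD-ZIP factor, was at 2.24 and 43.6, then at 39.5 against 10.5. ABF1, a bZIP factor that binds the ABRE, was at 22.5 and 48.0, then at 43.4 against 17.1, and MYB12, an activator of flavonol synthesis, was at 6.09 and 13.7, then at 12.4 against 4.92. ABF1 and MYB12 in skip were therefore slightly under their untreated level, whereas BHLH92 and HB40 stayed above it.

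The lists of ERF, NAC, WRKY and C2H2 zinc finger factors held no member among 16, 11, 15 and 6 salt-raised genes. With 13.9% of all salt-raised genes lower in skip, a count of 0 in a list this small is not read as a difference. These lists do not hold every gene of a family. By annotation, WRKY38, WRKY51, NAC004 and ERF53 are members that no list contained, and so are HB21, MYB108 and MYB121; these 7 were picked by family name after their values had been seen. WRKY38 was at 0.37 FPKM untreated and 20.3 with salt, then at 18.4 against 6.24 in skip. MYB108 was at 0.85 and 35.8, then at 32.4 against 11.3, and MYB121 was at 0.07 and 27.4, then at 24.8 against 10.07. Among heat shock factors, HSFA1E was at 2.05 and 21.6, then at 19.6 against 8.26. HSFA7A was at 3.121 and 11.1, then at 10.05 against 4.26. Their list of factors and chaperones had these 2 members among 10 salt-raised genes, beside 13.9% of all salt-raised genes. The other 8 were within 2-fold.

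The list of dehydrins and COR proteins held the largest number of members, 6 of its 15 salt-raised genes, beside 13.9% of all salt-raised genes. Its median skip log2 ratio was -0.79. This list too was chosen with earlier results of these data known. COR15A, whose product protects chloroplast membranes, was at 309 FPKM untreated and 2091 with salt, then at 1892 against 666 in skip, and had the highest level of any member that is not uncertain. LTI30, a dehydrin, was at 200.0 and 1404, then at 1270.5 against 586. Both stayed above untreated wild type in skip, with sums of 1.25 and 1.69.

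KIN1, a small hydrophilic cold-induced protein, was at 163 and 774, then at 700.1 against 312. COR413IM1, a protein of the chloroplast inner envelope, was at 79.1 and 302, then at 273 against 81.3, so skip was close to the untreated wild type level. COR27, a repressor linked to the clock and to light signalling, was the lowest in RNA level, at 2.52 and 23.2, then at 21.0 against 5.39. COR15B was at 70.9 and 477, then at 432 against 187; 468 nt of its locus overlap AT2G42520 on the opposite strand, and the sources used here do not state the strand setting of the libraries.

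The other salt-raised genes of the list were within 2-fold, all with a negative skip log2 ratio. RAB18 and RD29B, both known as ABA-responsive, had -0.17 and -0.08, while ERD14, ERD10, COR47, KIN2 and COR413-PM1 lay between -0.60 and -0.82. With a threshold of 1.5-fold for both ratios, 13 genes of the list instead of 6 met the rule, and with 3-fold, 2. Over all nuclear genes at the minimum, 771 of 3065 salt-raised genes met it at 1.5-fold and 51 of 986 at 3-fold. The background thus moved with the threshold, and nothing is read from the change in the list. The seed-type LEA list, of proteins that accumulate in drying seeds, held no member among its 9 salt-raised genes. Beside 13.9% of all salt-raised genes, a count of 0 in a list this small is not read as a difference. Some other members carry a LEA or dehydrin annotation outside these lists. AT3G02480, an LEA family gene, was at 76.5 and 1674, then at 1515 against 753, and AT3G15670 was at 4.41 and 240, then at 218 against 79.5. AT5G66780, picked after its values had been seen, was at 3.49 and 106, then at 95.8 against 21.4. AT4G38410, annotated as a dehydrin family protein, behaved otherwise: at 11.8 and 40.1, then at 36.3 against 4.94, it was in skip below the untreated level.

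**Figure D2:**
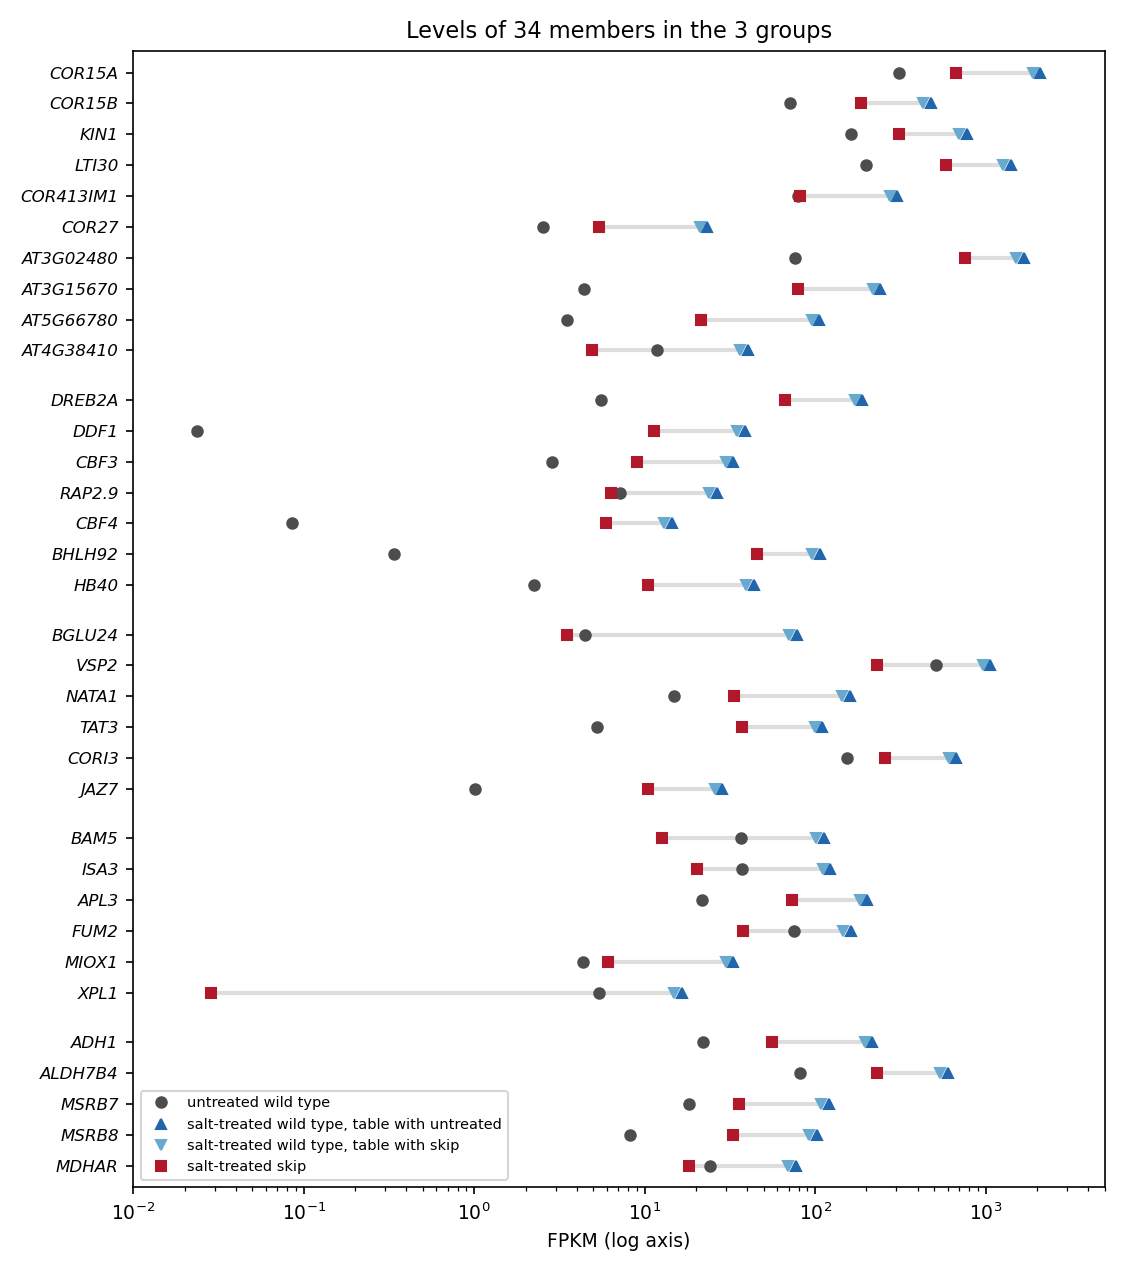
FPKM (log axis) of 34 members in untreated wild type, salt-treated wild type as listed in each of the 2 tables, and salt-treated skip; there is 1 value per group and no error. Rows run from COR and LEA genes through transcription factors, jasmonate-linked genes and carbon metabolism to redox enzymes. Some of them, among them MIOX1, MDHAR, MSRB7 and MSRB8, were picked after their values had been seen. In most rows skip lies between untreated and salt-treated wild type; in BGLU24, VSP2, BAM5, ISA3, FUM2, XPL1, MDHAR, RAP2.9 and AT4G38410 it lies left of untreated wild type.

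Among the members that are not uncertain, BGLU24, XPL1 and BAM5 differed most in skip. BGLU24, a beta-glucosidase, was at 4.46 FPKM untreated and 78.1 with salt, then at 70.7 against 3.49 in skip, a skip log2 ratio of -3.997, the lowest of the members that are not uncertain. XPL1, which methylates phosphoethanolamine on the way to phosphatidylcholine, was at 5.41 and 16.5, then at 14.9 against 0.03. Its RNA was thus almost not detected in skip, while that of untreated wild type was clearly present. AT5G28520, annotated as a mannose-binding lectin, was at 0.27 and 15.6, then at 14.1 against 1.099.

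BAM5 was in the starch and sugar list and ISA3 was not. BAM5, a beta-amylase, was at 37.0 and 112, then at 101 against 12.7. ISA3, a debranching enzyme of starch breakdown, was at 37.1 and 122, then at 111 against 20.4. APL3, a large subunit of the enzyme that makes ADP-glucose for starch synthesis, was at 21.8 and 202, then at 183 against 73.4, and was picked for this role after its values had been seen. The starch and sugar list of 20 genes at the minimum had 6 that were lower in skip, beside 4.76% of all genes at the minimum. Of these 6, only BAM5 was salt-raised. It was the 1 member among the 6 salt-raised genes of the list, near the 13.9% of all salt-raised genes. DPE2 and SEX1, of starch breakdown, missed the salt threshold, with salt log2 ratios of 0.95 and 0.91, and had skip log2 ratios of -1.72 and -1.45.

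FUM2, the cytosolic fumarase, was at 74.9 and 162, then at 147 against 37.6. OEP16-1, a channel of the outer plastid envelope, was at 160.0 and 406, then at 367 against 74.8. BGLU7, another beta-glucosidase, was at 17.61 and 38.0, then at 34.4 against 5.16, and AGL19, a MADS-box factor that promotes flowering, was at 6.24 and 13.8, then at 12.5 against 1.55. With XPL1, BAM5, ISA3, AT4G38410 and VSP2, these 4 genes had the lowest sums of both log2 ratios among the members that are not uncertain, from -2.51 for XPL1 to -0.69 for ISA3. In each of them skip was under untreated wild type.

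Jasmonate, a hormone of wounding and defence, had a list with 17 salt-raised genes, 3 of which were members, a share near the 13.9% of all salt-raised genes. VSP2, a vegetative storage protein used as a marker of the MYC branch of the response, was at 511 FPKM untreated and 1067 with salt, then at 966 against 231. Its paralog VSP1 was not salt-raised, at 270.3 and 245, and was at 222 against 41.6 in skip. CORI3, a cystine lyase, was at 155 and 669.8, then at 606 against 258. JAZ7, a repressor of jasmonate signalling, was at 1.01 and 28.5, then at 25.8 against 10.5. The other 14 salt-raised genes of this list were within 2-fold.

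Calcium sensors also had 3 members among 15 salt-raised genes, near that share of 13.9%. SOS3, the sensor that activates the SOS2 kinase and thereby sodium export, was at 5.51 and 16.3, then at 14.7 against 5.24. CML38 was at 3.02 and 52.4, then at 47.5 against 22.4, and its neighbour CML39 was at 1.32 and 15.4, then at 13.96 against 3.82. In skip SOS3 was at about the untreated level, and both calmodulin-like genes were above theirs.

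The remaining list members were few in each pathway. ELF4, of the evening complex of the clock, was at 37.2 and 87.3, then at 79.0 against 24.9. FKF1, a blue-light receptor, was at 4.99 and 15.1, then at 13.7 against 2.88. Of the 9 salt-raised genes of the clock and light list, 2 were members, beside 13.9% of all salt-raised genes. Another 2 were higher in skip, beside 4.99% of all salt-raised genes. CCA1, a morning factor, was 1 of those higher, at 30.1 in salt-treated wild type against 68.0 in skip.

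IAA19 and IAA30, repressors of auxin response, were at 5.07 and 2.17 FPKM untreated, at 30.7 and 38.1 with salt, and at 11.7 and 15.1 in skip. ALDH7B4, an aldehyde dehydrogenase induced by drought and salt, was at 81.6 and 599, then at 542 against 231. TAT3, a tyrosine aminotransferase induced by jasmonate, was at 5.26 and 110.3, then at 99.9 against 37.3. These genes all stayed above untreated wild type in skip.

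GOLS4 (galactinol synthase, first step to raffinose), TIP2;3 (a vacuolar water channel), MAPKKK15 (a kinase), PUB18 (a ubiquitin ligase known from ABA signalling) and GSTU2 (a glutathione transferase) were the other members in a list. Their skip log2 ratios ran from -1.06 in GOLS4 and MAPKKK15 to -1.39 in TIP2;3, and their salt-treated levels were under 33 FPKM. The value of GSTU2 is uncertain, since 63.3% of the 50-base stretches of its longest transcript also occur in the overlapping locus AT2G29485. No member was found in the lists of ABA synthesis and PP2C phosphatases (13 salt-raised), cuticular wax (11), nutrition (8), cell wall remodelling (7) or proline metabolism (2), where the 13.9% of all salt-raised genes would give few or none. In all, 36 members were in a list and 209 in none, and 19 of the 38 lists held a member.

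**Figure D3:**
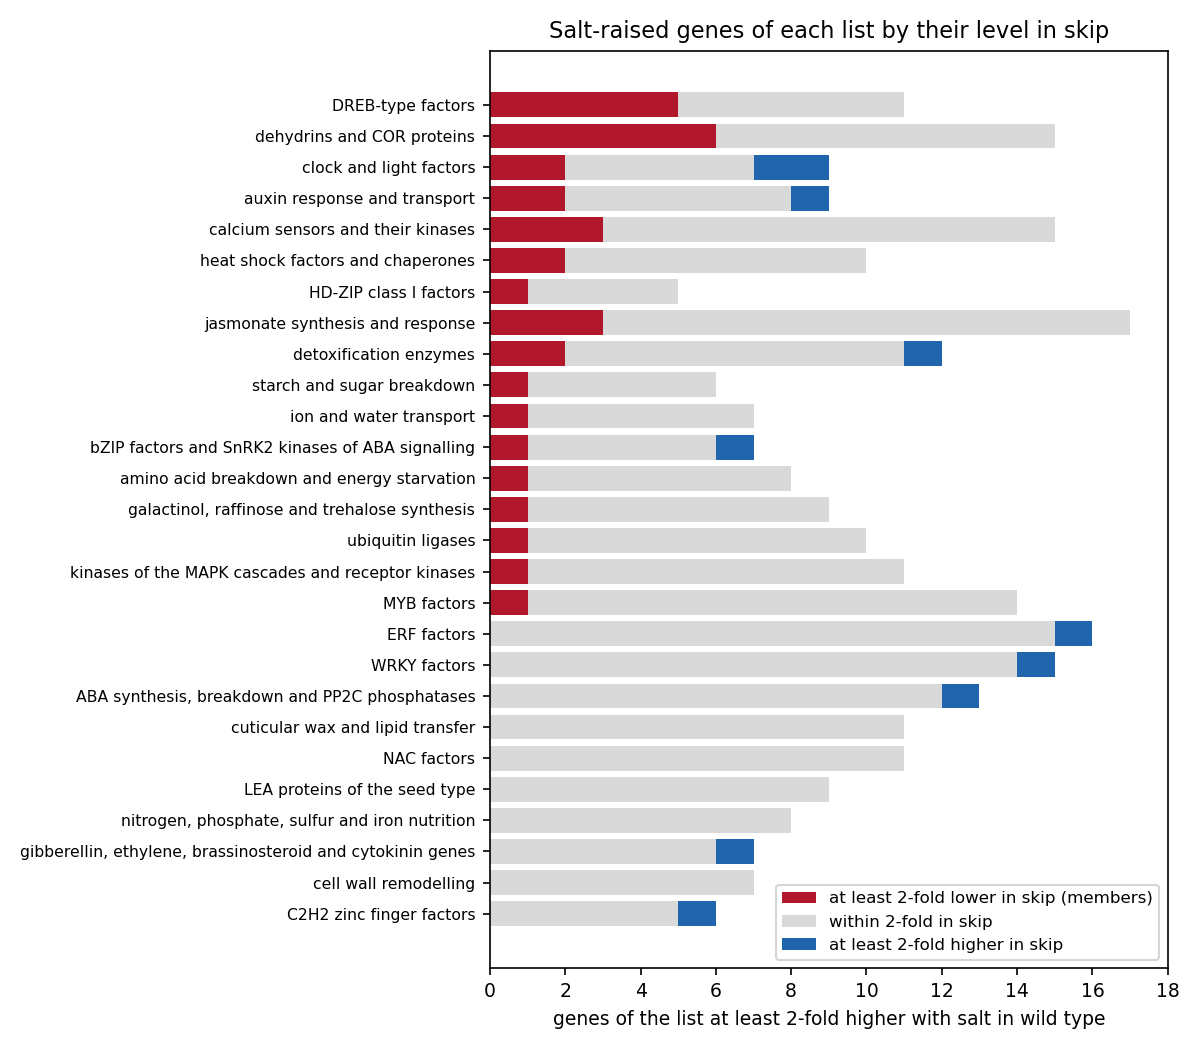
For each of 27 lists with at least 5 salt-raised genes, the bar length is the number of genes at least 2-fold higher with salt in wild type, split into members (red), genes within 2-fold in skip (grey) and genes at least 2-fold higher in skip (blue). DREB-type factors (5 of 11) and dehydrins and COR proteins (6 of 15) have the largest red share, and 10 lists have none. The lists were chosen with earlier results of these data known, so nothing is read from this order. Over all salt-raised genes the share of members was 13.9%.

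Members outside the lists with high salt ratios were AT3G44870, annotated as a methyltransferase, AT1G70130, a lectin-type kinase, and AT3G48510. Their salt log2 ratios were 4.98, 4.92 and 4.88, and their skip log2 ratios were -2.07, -1.09 and -1.01. AT3G48510, AT1G70130, BHLH92, AT3G15670 and DDF1 had the highest sums, from 3.73 in DDF1 to 5.26 in BHLH92, so salt-treated skip was far above untreated wild type. ZW9, a TRAF-like gene, was among the 10 highest in level, at 122.0 and 441, then at 399 against 191. ADH1 (alcohol dehydrogenase) and NATA1 (an acetyltransferase induced by jasmonate) were picked after their values had been seen. ADH1 was at 21.9 and 217, then at 196 against 55.9, and NATA1 was at 14.96 and 159, then at 144 against 33.3.

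Members that differed little from the thresholds were as follows. Just inside the salt threshold were MIZ1, AT1G61280 and AT1G73040, with log2 ratios of 1.001, 1.001 and 1.003, and just outside were AT4G33120 at 0.99, ENODL18 at 0.98 and ROPGEF11 at 0.98. Just inside the skip threshold were AT5G59490 at -1.004, AT4G12580 at -1.005 and AT3G02480 at -1.007. PLC1, AT4G19390 and AT1G75600 fell outside it with -0.9998, -0.9977 and -0.9967. A further 43 identifiers met both ratios but stayed under 5 FPKM in all columns.

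The promoters of members were compared with those of other genes, a feature that the rule did not use. An ABRE core occurred in the 250 bases before the start in 47.5% of 242 members with an annotated promoter (95% exact binomial interval 41.1% to 54.0%). It occurred in 37.4% of the salt-raised genes within 2-fold in skip (34.9% to 40.0%), in 47.7% of the 86 salt-raised genes higher in skip and in 30.2% of genes lower in skip but not salt-raised. Over all genes at the minimum the share was 24.6%, and over the 37897 annotated nuclear loci it was 20.8%. Genes are not replicates, the intervals cover counting error over genes only, and no test was made between groups. The share in salt-raised genes higher in skip was thus close to that of members. Its interval is wide (36.8% to 58.7%) and also covers the 37.4% of the salt-raised genes within 2-fold.

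The DRE core occurred in 19.0% of members (14.3% to 24.5%), in 16.4% of the salt-raised genes within 2-fold (14.6% to 18.5%) and in 13.4% of all genes at the minimum, and the intervals of members and other salt-raised genes overlap. It occurred in 11.96% of all annotated nuclear loci. The G-box (CACGTG, which contains the ABRE core) was found in 19.8% of members and 15.7% of the salt-raised genes within 2-fold. Among the salt-raised genes higher in skip it was in 22.1%. Its share was 7.97% over all genes at the minimum and 5.39% over annotated nuclear loci. The W-box core (TTGAC), bound by WRKY factors, was found in 44.6% of members, 51.4% of the salt-raised genes within 2-fold and 62.8% of those higher in skip, against 43.9% of annotated nuclear loci. Members with an ABRE core but no DRE core numbered 91, with a DRE core only 22, with both 24 and with neither 105. Their median skip log2 ratios lay between -1.34 and -1.28, and since the rule selected on that ratio nothing is read from this.

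**Figure D4:**
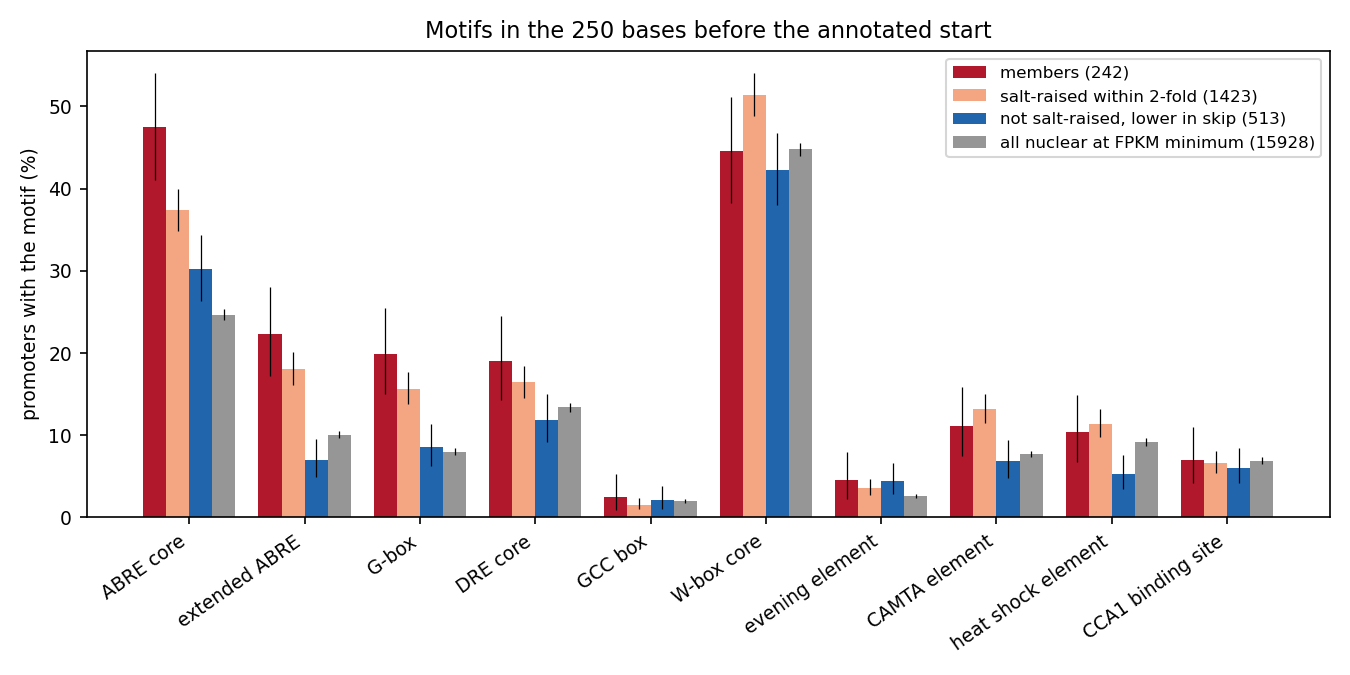
Share of promoters (percent) with each of 10 motifs on either strand, in members, salt-raised genes within 2-fold in skip, genes lower in skip but not salt-raised, and all nuclear genes at the minimum; black lines are 95% exact binomial intervals over genes. Of the groups drawn, members are highest for the ABRE core (47.5%), but the salt-raised genes higher in skip, not drawn, are at 47.7%. For the W-box core members lie at 44.6%, close to the 44.8% of all genes.

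Gene structure was also outside the rule. Among 223 protein-coding members with transcripts of at least 300 nt, 34.1% had a single exon (27.9% to 40.7%), against 26.9% of the salt-raised genes within 2-fold (24.6% to 29.3%), 31.4% of those higher in skip and 13.3% of all genes at the minimum. The median longest transcript of members was 1237 nt, against 1663 nt in the salt-raised genes within 2-fold and 1717 nt over all genes. Among transcripts of 900 to 1700 nt, a range chosen after the data were seen, the single-exon shares were 34.1% in members (25.8% to 43.2%) and 31.7% in the salt-raised genes within 2-fold (28.0% to 35.7%), so at like length the shares lay closer. The median GC content was 40.2% in members and 40.9% in the salt-raised genes within 2-fold.

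Seen from the other side, 15.8% of single-exon salt-raised genes were lower in skip, against 12.6% of those with 2 to 4 exons, 11.5% with 5 to 9 and 9.55% with 10 or more. The same order held among genes that were not salt-raised, with 8.03%, 3.94%, 2.63% and 1.82%. The median skip log2 ratio of single-exon genes was -0.44 in the salt-raised and -0.34 in the others, while for 2 to 4 exons it was -0.20 and -0.04. Single-exon genes were also lower in level, with a median of 22.0 FPKM in salt-treated wild type against 28.8 for 2 to 4 exons among salt-raised genes; the part of level in this order was not tested. CBF3, CBF4, DDF1 and RAP2.9 each have a single exon in their longest transcript, and DREB2A has 2.

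**Figure D5:**
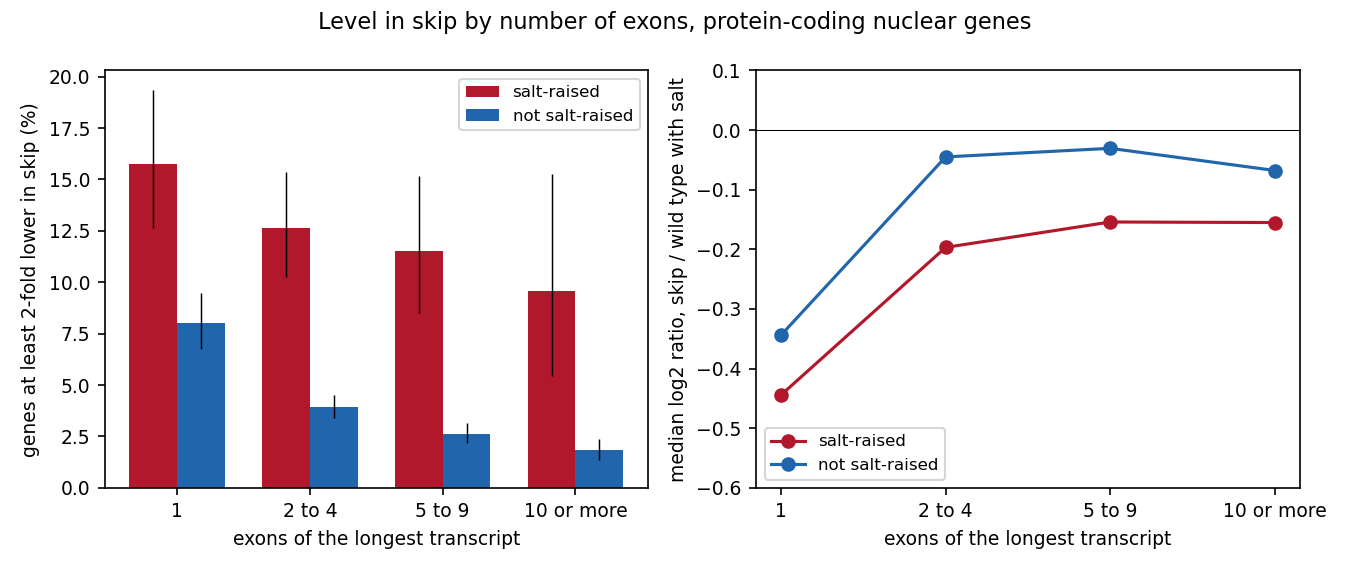
Left, percent of protein-coding nuclear genes at least 2-fold lower in skip by exons of the longest transcript, for salt-raised (red) and other genes (blue), with 95% exact binomial intervals over genes. Right, the median skip log2 ratio of the same classes. Both colours are lowest in the median for single-exon genes, at -0.44 and -0.34.

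Members were spread over the genome, with 67, 38, 48, 40 and 49 on chromosomes 1 to 5, or 1.32% to 1.64% of the genes tested on each. There were 11 pairs of adjacent members, among them COR15A with COR15B, MSRB7 with MSRB8, and CML38 with CML39. Some pairs hold an uncertain member, such as TAT3 with AGL61, which is listed at 0 in untreated wild type. Adjacent pairs were not counted among other genes, so nothing is read from their number. MSRB7 and MSRB8, methionine sulfoxide reductases that repair oxidised proteins, were picked after their values had been seen. They were at 18.3 and 8.17 FPKM untreated, 120.2 and 102 with salt, and 35.8 and 33.0 in skip. They share 22.2% and 23.9% of their 50-base stretches with each other, so reads could be split between them. Of the 242 members in the annotation, 23 shared 20% or more of their stretches with another locus and 187 shared none. A further limit is overlap: 50 members overlap another annotated locus, and UGT76E1 does so over 1896 nt with BOA, a clock gene on the opposite strand.

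Cell type markers of bulk seedlings bear on these values, since fewer cells of a type and less RNA per cell cannot be told apart. None of the root, leaf and seed markers was a member. No root or leaf marker was salt-raised and no seed marker reached the FPKM minimum, so none could meet the rule and nothing is read from this. The 14 root markers summed to 347 FPKM in untreated and 59.0 in salt-treated wild type, and to 53.4 against 55.7 in skip; their part in the salt ratios was not tested. The 11 leaf markers summed to 43056 and 30802, then to 27870 against 29424, and the sums of the 8 seed markers lay between 1.04 and 7.19. None of the 3 sets was at 0 in all columns, and no reference gene of 7 passed 2-fold in either comparison.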

How the data were processed

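RNA of whole seedlings was sequenced in 3 groups, with 1 value per gene and group that merges 2 replicates. The values are taken as FPKM, deposited by the authors in 2 tables; the unit is inferred from the values and the tools named. The aligner TopHat, the quantifier Cufflinks and build TAIR10 are listed, without role or version, per the submitters' processing notes; tool versions, library kit and strand setting: not given in the sources used here. Salt-treated wild type is in both tables, which differ by a factor of 1.105, so ratios were formed within a table as log2 of (FPKM + 1), which understates changes of low genes. An id was called at 2-fold, with an FPKM minimum of 5.

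With 1 value per group there is no replicate error and no test. Depth is unknown: low values fell on whole-fragment steps in only 50.5% to 71.0% of the values tried, so reads were not recovered and no count test was run.

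The members, the 38 gene lists and the motifs were chosen with earlier results of these data known; of 751 list entries, 28 did not resolve to 1 locus, and ambiguous symbols were settled by hand after the files were seen. Named are the 20 members lowest in skip, the 10 highest with salt and the 10 highest in level. The 10 lowest and 5 highest in the sum, members in a list, and 3 genes at each side of a threshold are named too. Other members named or drawn, among them AT5G66780, MSRB7, MSRB8, MDHAR, MIOX1, AGL61 and UGT76E1, were picked after their values had been seen. Names, exons, lengths and promoters are from RefSeq TAIR10.1, whose build name differs from that of the notes; 242 members matched. The promoter of 1 further gene of the dehydrin and COR list is not reported here. Whether the calls in these data are right, near a threshold or at low FPKM, was not tested. Python 3.11.15, numpy 2.4.6, pandas 2.3.3 and matplotlib 3.10.9 were used. The closing section gives alternative pseudocounts, minimums, centring, thresholds and feature filters.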

Additional observations from a re-analysis of the deposited data

How the results depend on the processing

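No paired analysis was possible because each group has a single merged column. The rule was met by 121 genes with a pseudocount of 5, 771 with 1.5-fold (all 245 members and 526 others) and 51 with 3-fold thresholds, against 245; the salt-raised genes then numbered 3065 with 1.5-fold and 986 with 3-fold thresholds, and the genes lower in skip 291 with a pseudocount of 5, 2289 with 1.5-fold and 156 with 3-fold thresholds. With a pseudocount of 0.1, no minimum, a minimum of 10, centring on the median gene, no short or non-coding features, or no genes listed at 0, between 194 and 305 genes met the rule. Leaving out, as alternatives added after seeing the data, members that share sequence gave 222, and members that overlap a locus 195. A pseudocount of 5 took 47 members below the salt threshold and 113 out of the skip threshold, and centring 4 and 23. The pseudocount of 5 gave median log2 ratios of 1.40 for salt, -1.02 for skip and 0.37 for their sum; a pseudocount of 0.1 gave -1.43 and centring -1.25 for skip. The share of lower among all 2-fold calls in skip was 70.0%, 63.0% with centring. In a 300-base window that runs 50 bases past the start, the ABRE core was in 52.5% of members (46.0% to 58.9%) and 43.9% of the salt-raised genes within 2-fold (41.3% to 46.5%), whose intervals overlap, and the DRE core was in 21.1% of members. Depth is unknown, so low members (51 under 10 FPKM with salt) carry an unknown counting error. Each comparison rests on 1 merged value per group, and the way the replicates were merged is unknown here.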
